A study of Mus musculus with 12 samples.

Results

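The collagen chain genes are the genes whose symbol is Col, a number, the letter a and a number, such as Col1a1. They were taken from the probe sets that the platform's annotation assigns to such a gene alone, and each gene was read from 1 probe set, the one with the highest mean log2 signal over the 12 arrays. By this rule 42 genes, measured by 82 probe sets, were members, out of 18193 genes named alone by a probe set. They comprise 11 chains of fibrillar collagens, 6 chains of the basement membrane collagen (type IV) and 25 other chains.

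A collagen molecule is a triple helix of 3 chains, and each chain is encoded by its own gene. Fibrillar collagens, chiefly types I and III in the heart, assemble into the fibres that hold the muscle bundles together, whereas type IV collagen forms the sheet-like network of the basement membrane around each cardiomyocyte and capillary. Other collagens link, coat or anchor these structures. Fibroblasts are the main source of fibrillar chains in the heart, and vascular cells make much of the type IV chains.

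The hearts of 12 C57BL/6 mice, 8 to 9 weeks old, were measured on Affymetrix arrays of mouse transcripts, with 1 array for each mouse. By their labels, 3 mice were ILKR211A Tg, 3 were ILKS343D Tg and 6 were WT littermates. Each line carries a mutated human integrin-linked kinase gene (ILK, an adaptor at integrin adhesions) whose overexpression the methods call cardiac-specific, and the promoter is not named there. The design asks how the collagen chains in whole heart tissue stand in each transgenic line against littermates, and between the lines. All groups share the strain and the age range, and the labels name no treatment or operation, although the methods describe groups with and without myocardial infarction for these hybridizations. The descriptions of some samples name the left ventricle and those of the others only the heart.

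The WT titles carry 2 runs of replicate numbers, called the first and the second control set here, with 3 mice each. No source used here names the line that a set belongs to, although each set shares its range of heart numbers with 1 line. All 6 mice served as controls for both lines, and the comparisons of the lines with controls share them. In the labels' heart numbers from 1 to 12, the first set and the ILKS343D Tg mice hold 1 to 6, and the second set and the ILKR211A Tg mice hold 7 to 12, so a control set and a range of heart numbers cannot be told apart. The labels call 1 mouse male, replicate 1 of the first set, and all others female, but for Xist and Eif2s3y this mouse did not stand apart.

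Values are given as linear signal intensities, whose median per array was between 41.5 and 49.1. The number of arrays limits the precision. Ilk, the gene both lines overexpress, had a signal of 8799 ± 682 (SD, n = 3) in ILKR211A Tg hearts, 3515 ± 434 (SD, n = 3) in ILKS343D Tg hearts and 601 ± 39 (SD, n = 6) in controls. The summed signal of 10 cardiomyocyte markers was between 93342 and 116310 in every heart. Of the defining markers of other cell types, those of fat cells (Adipoq, Lep and Cidec), 5 of 6 of cartilage, and Cd3e and Cd79a of lymphocytes were below the filter on low signal. The summed signal of the fat-cell markers was 244 in 1 ILKR211A Tg heart and at most 87.3 in every other heart.

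Promoters of 33 of the 42 members were matched by symbol in RefSeq's annotation of GRCm38.p6, as 36 windows of the 250 bases before the annotated start. Col1a2 and Col3a1 are shown because they encode the chains of the main heart fibrils whose values are set side by side with those of Col1a1 below. The Col1a2 window is chr6:4505368-4505617 and the Col3a1 window chr1:45311288-45311537, both on the plus strand, upstream of the first exon. Capitals mark the letters CCAAT, the TATA box in the form TATAAA, or the GC box in the form GGGCGG. Each was searched on both strands, and no marked match overlaps another.
Col1a2: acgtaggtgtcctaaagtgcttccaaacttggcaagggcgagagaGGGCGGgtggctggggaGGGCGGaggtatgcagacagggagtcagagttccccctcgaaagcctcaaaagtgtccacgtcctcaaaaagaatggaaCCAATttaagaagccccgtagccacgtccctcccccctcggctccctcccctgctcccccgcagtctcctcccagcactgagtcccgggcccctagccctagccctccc
Col3a1: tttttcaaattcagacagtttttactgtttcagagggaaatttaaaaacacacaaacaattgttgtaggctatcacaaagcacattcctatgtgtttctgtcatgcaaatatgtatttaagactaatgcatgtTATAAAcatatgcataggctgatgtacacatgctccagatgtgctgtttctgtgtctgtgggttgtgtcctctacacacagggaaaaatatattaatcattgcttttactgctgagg

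The Col1a2 window held GGGCGG at 205 and 188 bases before the annotated start and CCAAT at 109 bases, whereas the Col3a1 window held none of these and TATAAA at 117 bases. GGGCGG was found in 21 of the 36 collagen windows (58.3%) and in 32.7% of all 32851 windows of the same length. CCAAT was found in 13 collagen windows (36.1%, against 33.8% of all) and TATAAA in 5 (13.9%, against 12.4%). The annotated starts of Col4a1 and Col4a2, whose products join in 1 triple helix, lie 21 bases apart on opposite strands, and those of Col4a5 and Col4a6 lie 1343 bases apart on opposite strands.

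Of the 42 members, 24 reached the filter limit on mean log2 signal, 5.44 (a signal of 43.5), and were tested. They were 7 of 11 fibrillar chains, all 6 basement membrane chains and 11 of 25 other chains. The chains below the limit were Col2a1, Col11a1, Col11a2 and Col24a1 among the fibrillar ones, and Col6a4, Col6a5, Col8a2, Col9a2, Col9a3, Col10a1, Col12a1, Col13a1, Col17a1, Col19a1, Col22a1, Col23a1, Col25a1 and Col26a1 among the others. They include the cartilage collagen chains Col2a1 and Col10a1, with control signals of 14.2 ± 6.08 and 6.28 ± 1.64 (SD, n = 6). Their mean log2 signals ran from -0.02 for Col17a1 to 5.42 for Col12a1, just outside the limit, and the member just inside was Col7a1 at 5.48. Col7a1 is the 1 tested member whose control mean lay below the limit.

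In neither transgenic line did a collagen chain pass the threshold of an adjusted p under 0.05 in limma. Against controls, 0 of the 24 tested chains were called in ILKR211A Tg hearts, where 0.204% of all 22519 probe sets were called, and 0 in ILKS343D Tg hearts, where 0.00444% were. At an unadjusted p under 0.05, the counts were 0 chains in ILKR211A Tg hearts, against 7.51% of all probe sets, and 1 chain (4.17%) in ILKS343D Tg hearts, against 3.98%. Groups that did not overlap were found for 0 chains in ILKR211A Tg hearts (4.07% of all probe sets) and for 1 chain in ILKS343D Tg hearts (2.03%). The 1 chain in both counts was Col7a1, which passed the filter only through the ILKS343D Tg hearts. Replicates are separate mice, and RNA of a whole piece of heart cannot tell fewer cells of a type from less RNA per cell.

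The intervals bound how large a difference these arrays could have missed. For ILKR211A Tg hearts the 95% interval of the fold difference lay within 1.5-fold in either direction for 20 of 24 chains, and for ILKS343D Tg hearts for 18 of 24. For all 24 chains it lay within 2-fold in both lines. All 7 fibrillar chains were within 1.5-fold in both lines, and the plot of the fitted differences against controls shows the widest intervals for Col4a6.

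**Figure D1:**
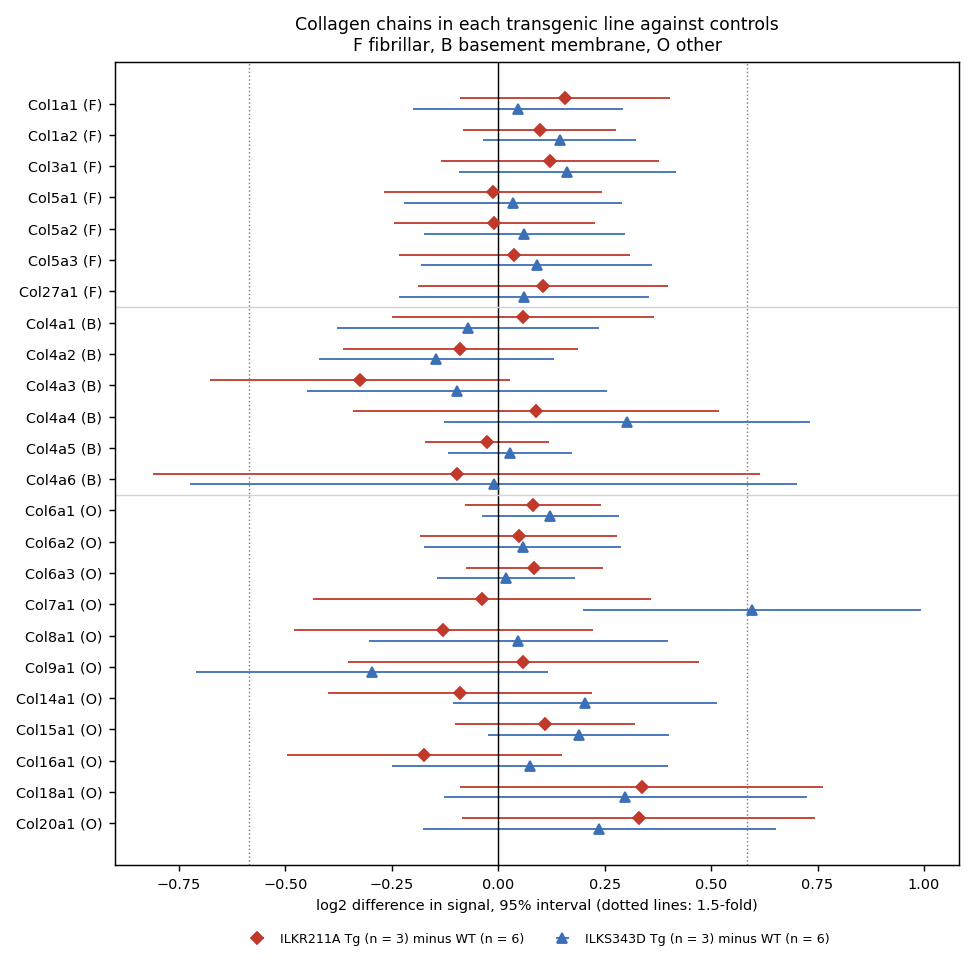
Log2 difference in signal (x axis) of the 24 tested collagen chains (y axis, by class) in ILKR211A Tg hearts (red diamonds, n = 3) and ILKS343D Tg hearts (blue triangles, n = 3) against the 6 WT controls, with 95% intervals from limma and dotted lines at 1.5-fold. Col7a1 in ILKS343D Tg hearts, at 0.60, is the 1 chain whose interval does not include 0, and it passed the filter only through these hearts.

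Type I collagen, the main fibre of the heart, consists of chains from Col1a1 and Col1a2. The Col1a1 signals were 683, 729 and 597 in ILKR211A Tg hearts and 513, 690.5 and 667 in ILKS343D Tg hearts, and they ran from 513 over a median of 622 to 694 in the 6 controls. The Col1a2 signals were 1003, 977 and 876 in ILKR211A Tg hearts, 913, 991 and 1048 in ILKS343D Tg hearts, and 776 to 960.0 with a median of 934 in controls. Both lines overlapped the controls for both genes, and of the 6 transgenic hearts 1 lay above the highest control for Col1a1 and 4 for Col1a2. For Col1a1 the log2 difference from controls was 0.16 (SE 0.115, adjusted p = 0.849 from limma) in ILKR211A Tg hearts and 0.05 (adjusted p = 0.996) in ILKS343D Tg hearts. For Col1a2 the log2 differences were 0.10 and 0.14, with 95% intervals from -0.08 to 0.28 and from -0.04 to 0.32.

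Type III collagen, made from Col3a1 alone, forms thinner fibres beside type I. Its signals were 3186, 2752 and 2906 in ILKR211A Tg hearts, 2486, 3237 and 3448 in ILKS343D Tg hearts, and 2225 to 3252 with a median of 2834 in controls. Only 1 transgenic heart, ILKS343D Tg replicate 3, lay above the control range, and the ILKS343D Tg hearts alone spanned most of that range. The log2 differences were 0.12 (95% interval -0.13 to 0.38) and 0.16 (95% interval -0.09 to 0.42).

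Type V collagen, which sits within type I fibrils and limits their width, has chains from Col5a1, Col5a2 and Col5a3. The Col5a1 signals were 355, 400.0 and 358 in ILKR211A Tg hearts, 324, 417 and 416 in ILKS343D Tg hearts, and 307 to 450.2 with a median of 390.4 in controls. The Col5a2 signals were 340.3, 360.5 and 311 in ILKR211A Tg hearts, 309.6, 351 and 407 in ILKS343D Tg hearts, and 281 to 377 with a median of 357 in controls. Every transgenic heart lay within the control range for both genes except ILKS343D Tg replicate 3 for Col5a2. Col5a3 had log2 differences of 0.04 and 0.09, and Col27a1, a fibrillar chain best known from cartilage, of 0.11 and 0.06.

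The 7 fibrillar chains had a median log2 difference of 0.10 in ILKR211A Tg hearts, with 5 above 0 and 2 below, and of 0.06 in ILKS343D Tg hearts, with 7 above 0. The medians over all tested probe sets were 0.0008 and 0.0026. For scale, the median deviation of the fibrillar chains from the mean of the controls had an SD of 0.157 over the 6 control mice. That SD is a spread of single mice and not of group means. The split of 5 and 2 in ILKR211A Tg hearts was 7 and 0 when each array was centred on its median, a scaling that moves the median of all probe sets to 0.04. Over all 24 chains, 14 were above 0 in ILKR211A Tg hearts on the deposited values and 17 with this centring, and 19 and 17 in ILKS343D Tg hearts. Against the first control set alone the fibrillar medians were 0.01 in ILKR211A Tg hearts and 0.03 in ILKS343D Tg hearts, and against the second alone 0.12 and 0.17. Without ILKS343D Tg replicate 3 the fibrillar median of that line was -0.01, and without replicate 1 it was 0.16.

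**Figure D2:**
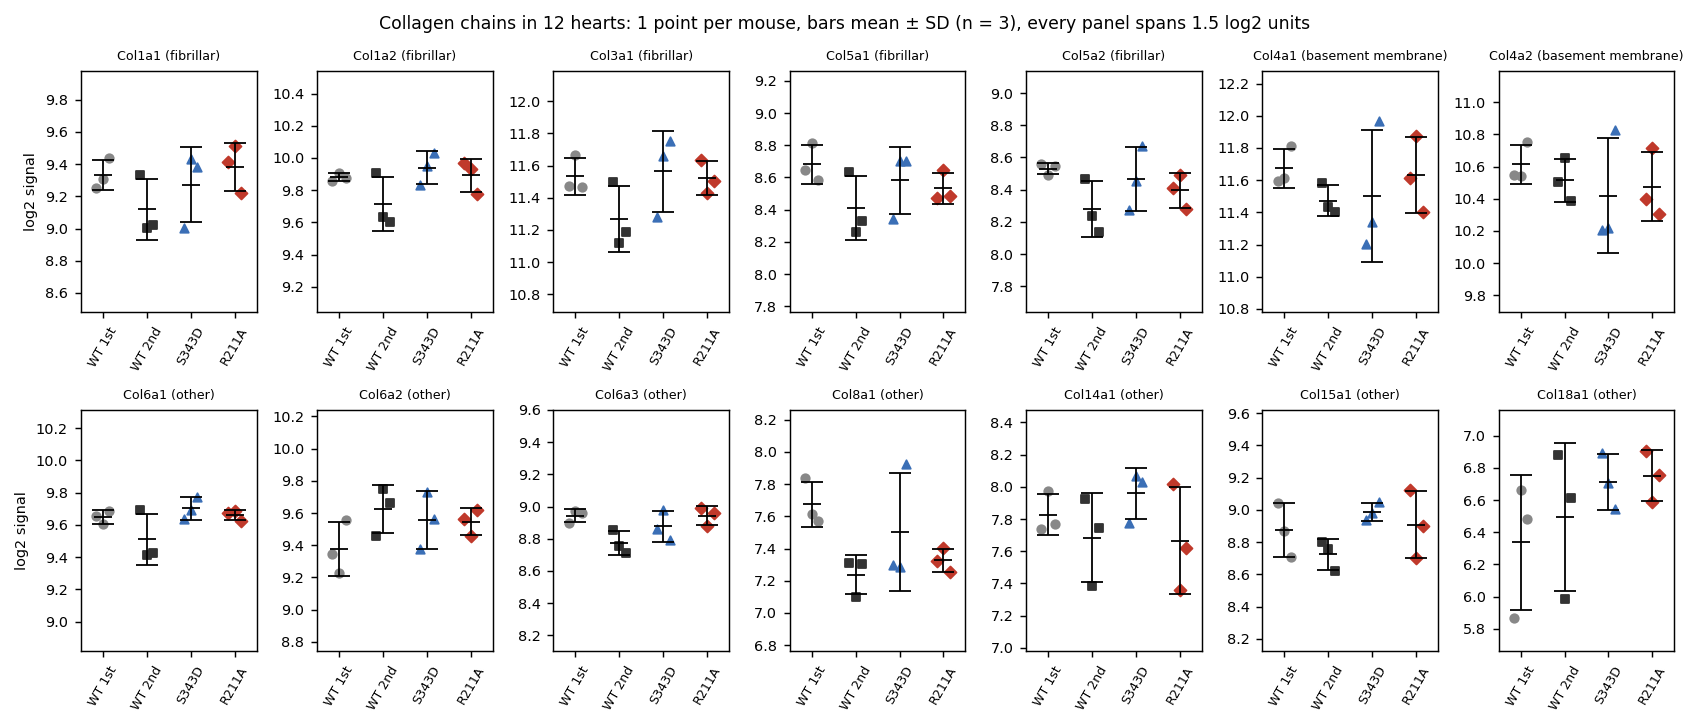
Log2 signal (y axis) of 14 collagen chains in each mouse, for the first (grey circles) and second (dark squares) WT control sets, ILKS343D Tg (blue triangles) and ILKR211A Tg hearts (red diamonds), with bars for mean ± SD (n = 3). All panels span the same range of log2 signal. Replicates 2 and 3 of the second control set lie below the other controls for chains that include Col1a1, Col1a2, Col3a1, Col4a1, Col5a1, Col5a2 and Col6a1.

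Type IV collagen of the basement membrane is built mainly from the chains of Col4a1 and Col4a2. The Col4a1 signals were 3129, 3756 and 2711 in ILKR211A Tg hearts, 2354, 2588 and 4002 in ILKS343D Tg hearts, and 2703 to 3597 with a median of 3081 in controls. The Col4a2 signals were 1350.0, 1684 and 1268 in ILKR211A Tg hearts, 1181, 1192 and 1820.0 in ILKS343D Tg hearts, and 1336 to 1726 with a median of 1493 in controls. The 3 ILKS343D Tg hearts lay on both sides of the control range for both genes, 2 below the lowest control and replicate 3 above the highest. The mean signal of Col4a1 was 2981 ± 891 in ILKS343D Tg hearts, 3199 ± 526 in ILKR211A Tg hearts (SD, n = 3) and 3059.8 ± 319 in controls (SD, n = 6). The log2 differences for Col4a1 were 0.06 in ILKR211A Tg hearts and -0.07 in ILKS343D Tg hearts, and for Col4a2 -0.09 and -0.15, with adjusted p of 0.936 or more from limma.

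Col4a3 and Col4a4 encode minor type IV chains known best from kidney and lung basement membranes, and both were dim here. The Col4a3 signals were 45.4, 38.4 and 52.9 in ILKR211A Tg hearts and 51.4 to 66.1 with a median of 54.4 in controls, so that 2 of 3 lay below the lowest control. The log2 difference was -0.33 (SE 0.165, adjusted p = 0.696 from limma), and the exact two-sided permutation test gave p = 0.0476, where 3 mice against 6 cannot go below 0.0119. In ILKS343D Tg hearts it was -0.10. Col4a4 had a log2 difference of 0.09 in ILKR211A Tg hearts and of 0.30 in ILKS343D Tg hearts, where replicate 3 stood at 85.4 beside 52.3 and 45.1 in the others.

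Col4a5, the other chain with a signal well above the limit, was the most even of the class. Its signal was 362 ± 15.7 in ILKR211A Tg hearts, 376 ± 10.5 in ILKS343D Tg hearts (SD, n = 3) and 369 ± 19.7 in controls (SD, n = 6), with log2 differences of -0.03 and 0.03. Col4a6 was the least precise tested chain in both comparisons with controls, with 95% intervals from -0.81 to 0.61 and from -0.72 to 0.70. The median log2 difference of the 6 chains was -0.06 in ILKR211A Tg hearts and -0.04 in ILKS343D Tg hearts, with 4 of 6 below 0 in each. These medians changed sign when single mice were left out. The first was 0.08 without ILKR211A Tg replicate 3 and 0.006 without replicate 2 of the first control set, and the second was 0.05 without ILKS343D Tg replicate 1.

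Type VI collagen forms beaded filaments near cell surfaces, from chains of Col6a1, Col6a2 and Col6a3. The Col6a1 signals were 817, 823 and 791 in ILKR211A Tg hearts, 795, 829 and 877 in ILKS343D Tg hearts, and 680.5 to 828 with a median of 793 in controls. The Col6a2 signals were 756, 704 and 788, then 664, 850.0 and 758, and 599 to 862 with a median of 729 in controls. The Col6a3 signals were 508, 471 and 499, then 464, 505 and 443, and 419 to 502 with a median of 471 in controls. For all 3 genes the lines overlapped the controls, and the log2 differences were between 0.02 and 0.12.

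Col7a1 encodes the chain of anchoring fibrils, known from the attachment of skin epithelium, and its signal was close to the filter limit. It was 54.2, 62.1 and 68.7 in ILKS343D Tg hearts, 36.8, 34.4 and 49 in ILKR211A Tg hearts, and 35.5 to 53 with a median of 38.4 in controls. Every ILKS343D Tg heart thus lay above every control, the nearest pair at 54.2 and 53. The log2 difference was 0.60 (95% interval 0.20 to 0.99, adjusted p = 0.996 from limma, unadjusted p = 0.00605), and the exact permutation test gave p = 0.0119, the smallest possible. The chain entered the test only through the ILKS343D Tg hearts. It was the 1 chain with an unadjusted p under 0.05 in that comparison, where 3.98% of all probe sets had one.

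The summed signal of 6 epicardial and mesothelial markers ran from 386 to 632 in ILKS343D Tg hearts, from 262 to 460.2 in controls and from 345 to 485 in ILKR211A Tg hearts. Of the 4 such markers that were tested, 4 lay above 0 in ILKS343D Tg hearts. Upk3b and Upk1b had an unadjusted p under 0.05 in limma there, as did 3.98% of all probe sets. The defining markers Msln and Krt19 were below the filter. The part of these markers in the Col7a1 value was not tested.

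Col8a1 encodes a chain of a short network-forming collagen of vessel walls. Its signals were 159.9, 169 and 153 in ILKR211A Tg hearts, 157, 156 and 243 in ILKS343D Tg hearts, and 137 to 229 with a median of 175 in controls. The lines overlapped the controls, with ILKS343D Tg replicate 3 alone above the range. The log2 differences were -0.13 (95% interval -0.48 to 0.22) and 0.05 (95% interval -0.30 to 0.40).

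Col14a1 encodes a chain that coats fibrils. Its signals were 259, 164 and 197 in ILKR211A Tg hearts, 219, 269 and 262 in ILKS343D Tg hearts, and 167 to 252 with a median of 217 in controls. The ILKR211A Tg hearts lay on both sides of the control range. The log2 differences were -0.09 and 0.20, with adjusted p of 0.942 and 0.996 from limma. Another tested probe set of this gene was at 0.13 in ILKR211A Tg hearts, opposite in sign to the one used. In ILKS343D Tg hearts it was at 0.35 (unadjusted p = 0.0328, adjusted p = 0.996 from limma).

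Col15a1 and Col18a1 encode multiplexins, collagens of the basement membrane zone, and the C-terminal fragment of the latter is endostatin. The Col15a1 signals were 489.9, 505 and 529.6 in ILKS343D Tg hearts, 558, 417 and 478 in ILKR211A Tg hearts, and 393 to 527 with a median of 439 in controls. The Col18a1 signals were 119, 104 and 93.2 in ILKS343D Tg hearts, 119.9, 96.3 and 108 in ILKR211A Tg hearts, and 58.4 to 118 with a median of 93.5 in controls. The 3 ILKS343D Tg hearts were close together for Col15a1 at the upper end of the control range, with a log2 difference of 0.19 (95% interval -0.02 to 0.40, unadjusted p = 0.0775, adjusted p = 0.996 from limma). For Col18a1 the log2 differences were 0.34 in ILKR211A Tg hearts and 0.30 in ILKS343D Tg hearts, and the control signals spanned a wider range than those of either line.

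The remaining tested chains, Col9a1, Col16a1 and Col20a1, belong to the collagens that attach to fibril surfaces. Col20a1 had a log2 difference of 0.33 (95% interval -0.08 to 0.75) in ILKR211A Tg hearts and of 0.24 in ILKS343D Tg hearts. The first of these was 0.18 without ILKR211A Tg replicate 3, 0.56 without replicate 2, 0.12 against the first control set alone and 0.54 against the second alone. The other probe sets of Col20a1, with geometric mean signals of 24.1, 3.83 and 5.04, lay below the filter, beside 94.9 for the one used. Col16a1 was at -0.17 and 0.07, and Col9a1 at 0.06 and -0.30. Over the 11 other chains the median log2 difference was 0.06 in ILKR211A Tg hearts, with 7 above 0, and 0.12 in ILKS343D Tg hearts, with 10 above 0, against an SD of 0.121 for the corresponding median over the 6 control mice.

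The 2 lines hold separate ranges of heart numbers, so a difference between the lines cannot be told apart from one between the ranges. Compared directly, the 2 lines differed in 0 of 24 chains at an adjusted p under 0.05 in limma, where 0.160% of all probe sets were called. At an unadjusted p under 0.05 they differed in 1 chain (4.17%), against 8.45% of all probe sets, and groups did not overlap for 1 chain, against 15.0%. That chain was Col7a1 in both counts, with a log2 difference of -0.63 between ILKR211A Tg and ILKS343D Tg hearts (95% interval -1.09 to -0.18, adjusted p = 0.425 from limma). The exact permutation p was 0.1, the smallest that 3 mice against 3 allow. Since this chain passed the filter only through the ILKS343D Tg hearts, its counts here are a description. The next smallest adjusted p belonged to Col14a1, with a log2 difference of -0.29 (adjusted p = 0.673), and to Col9a1, with 0.36 (adjusted p = 0.709). The Col14a1 value was -0.14 without ILKR211A Tg replicate 2 and -0.47 without replicate 1, and the Col9a1 value was 0.14 without ILKS343D Tg replicate 3 and 0.59 without replicate 2. Col16a1 and Col4a3 followed at -0.25 and -0.23. For 17 of 24 chains the 95% interval lay within 1.5-fold, and for 23 within 2-fold.

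The fibrillar chains had a median log2 difference of -0.05 between the lines, the basement membrane chains of -0.07 and the other chains of -0.04, beside -0.0047 over all probe sets. The number of chains above 0 was 8 of 24 on the deposited values and 15 of 24 when each array was centred on its median, which moves the median of all probe sets to 0.06. Relative to the median of all probe sets, the median of the 24 chains was -0.04 under both scalings. The class medians changed sign when single mice were left out. The fibrillar median was 0.03 without ILKS343D Tg replicate 3, 0.0072 without replicate 2 of that line and 0.01 without ILKR211A Tg replicate 3. The basement membrane median was 0.07 without ILKS343D Tg replicate 3 and 0.05 without ILKR211A Tg replicate 3, and the median of the other chains was 0.02 without ILKR211A Tg replicate 2.

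The median difference of the 24 chains was larger in size between the 2 control sets than in the comparisons with transgenic mice. In the second set 19 of 24 chains had a lower fitted level than in the first, with a median log2 difference of -0.12, while 48.1% of all probe sets lay below 0 and their median was 0.0076. By class the medians were -0.21 for fibrillar, -0.10 for basement membrane and -0.14 for other chains, and the second of these was 0.0041 without replicate 2 of the first set. None of the 24 chains passed an adjusted p under 0.05 in limma, where 0.00888% of all probe sets did. At an unadjusted p under 0.05 there were 6 chains (25%), against 7.99% of all probe sets, and 4 chains had groups that did not overlap, against 12.6%.

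The 6 chains were Col3a1, Col5a1, Col5a2, Col6a3 and Col8a1, with lower fitted levels in the second set, and Col6a2, with a higher one (log2 difference 0.25). Col3a1 and Col5a1 both had a log2 difference of -0.27. Col8a1 had signals of 229, 196 and 190.3 in the first set and of 159, 137 and 158 in the second, with no overlap. Its log2 difference was -0.44 (95% interval -0.77 to -0.10, unadjusted p = 0.0144, adjusted p = 0.52 from limma). Col5a2 had signals of 377, 359.7 and 373 in the first set and of 354, 302 and 281 in the second, again with no overlap, and its log2 difference was -0.25 (adjusted p = 0.611). Col6a3 stood at 478, 502 and 497 against 463, 433 and 419 (log2 difference -0.17, adjusted p = 0.612). The remaining chain without overlap was Col4a1 of the basement membrane, at 3096, 3131 and 3597 in the first set and 3066, 2766 and 2703 in the second. Its log2 difference was -0.20 (adjusted p = 0.801 from limma). Exact permutation tests of 3 against 3 cannot go below 0.1, the value these 4 genes had.

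**Figure D3:**
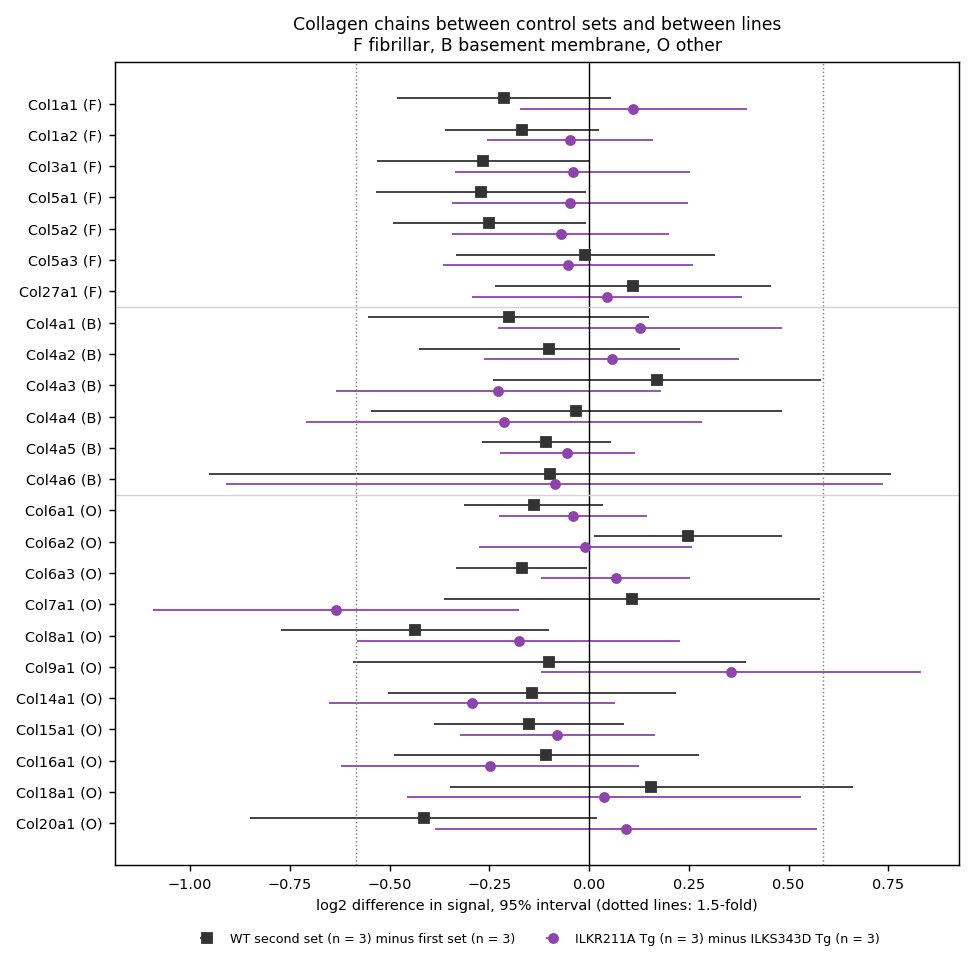
Log2 difference in signal (x axis) of the 24 tested collagen chains (y axis, by class) between the second and first WT control sets (dark squares, n = 3 each) and between ILKR211A Tg and ILKS343D Tg hearts (purple circles, n = 3 each), with 95% intervals from limma and dotted lines at 1.5-fold. For the control sets 19 of 24 points lie below 0, and between the lines 16 of 24.

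Within the second set the lower fibrillar levels belonged to 2 of the 3 mice. Col3a1 had signals of 2897, 2225 and 2328 in the second set and of 2842, 3252 and 2826 in the first. Col1a2 had signals of 958, 793 and 776 in the second set and of 928, 960.0 and 939 in the first. Replicate 1 of the second set was thus inside the range of the first set for Col3a1 and Col1a2, whereas replicates 2 and 3 were below every mouse of it. The median deviation of the 7 fibrillar chains from the mean of all controls was -0.22 and -0.21 on the log2 scale in replicates 2 and 3, and between 0.06 and 0.11 in the other 4 controls. Without replicate 2 the median difference of the fibrillar chains between the sets was -0.15, and without replicate 3 it was -0.16.

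Markers of several cell types also differed in level between the control sets. Of 11 fibroblast markers, 10 had a lower fitted level in the second set, with a median log2 difference of -0.21, and their summed signal was between 14938 and 16795 there and between 16693 and 17941 in the first set. Of these 11, Thy1 (log2 difference -0.52) and Mfap5 (log2 difference -0.27) had an unadjusted p under 0.05 in limma, and none passed an adjusted p under 0.05. Over all probe sets, 7.99% had an unadjusted p under 0.05 between the control sets, and 48.1% lay below 0. The median over 10 cardiomyocyte markers was -0.01. Over 10 endothelial markers the median was 0.03, with 3 below 0, but their summed signal did not overlap, at 11451 to 12032 in the second set and 12408 to 13254 in the first. Of 9 macrophage markers 7 had a lower fitted level in the second set (median -0.11), and both tested blood markers did (median -0.33), while the summed signals of these lists overlapped. The part of these markers in the collagen values was not tested.

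**Figure D4:**
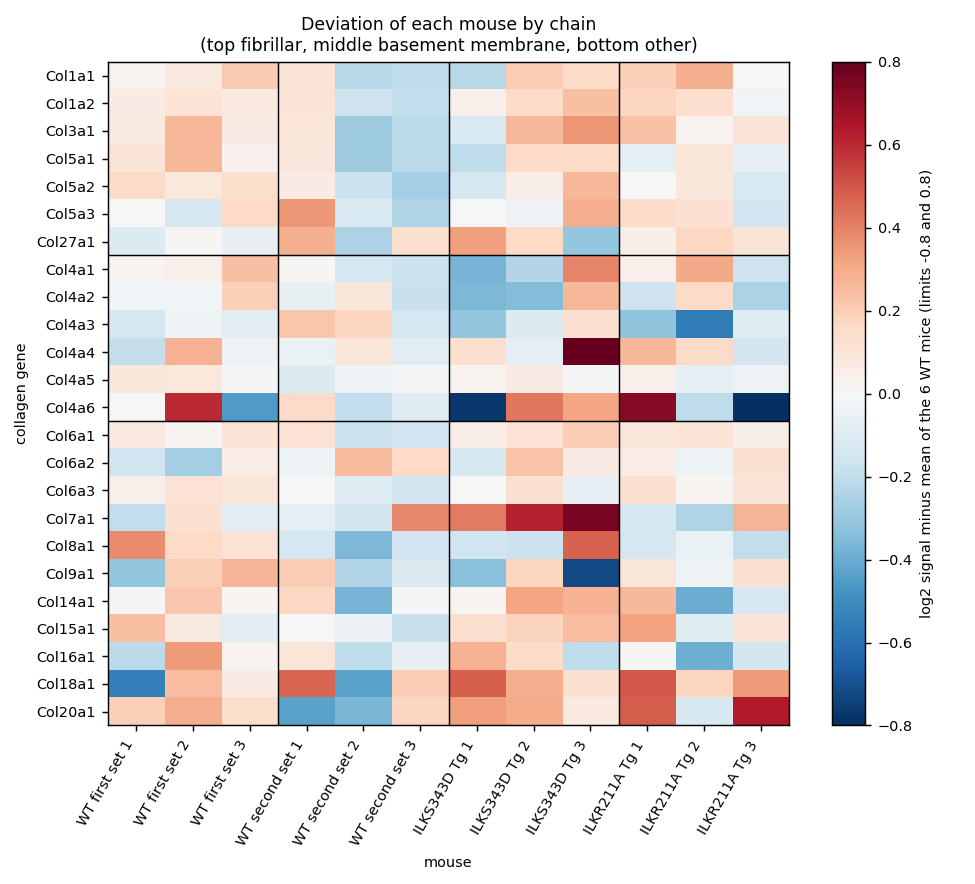
Log2 signal minus the mean of the 6 WT mice (colour, limits -0.8 and 0.8) for the 24 tested collagen chains (rows, by class) in each mouse (columns). Replicates 2 and 3 of the second control set are blue in most fibrillar rows, and ILKS343D Tg replicates 1 and 3 have opposite colours for Col4a1 and Col4a2.

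The heart numbers place each line in 1 range with 1 control set, so each line was also set against the controls of its own range. Of the 24 chains, 17 were above 0 in ILKR211A Tg hearts against the second set and 13 in ILKS343D Tg hearts against the first. In limma, 0 chains passed an adjusted p under 0.05 in either, where 0.147% and 0.00444% of all probe sets did. At an unadjusted p under 0.05 there were 3 chains (12.5%) in the first, Col20a1 at 0.54, Col6a3 at 0.17 and Col4a3 at -0.41, against 7.26% of all probe sets. In the second there was 1 (4.17%), Col7a1 at 0.65, against 4.66%, and this chain had passed the filter only through the ILKS343D Tg hearts. For Col1a1 the log2 difference was 0.26 in ILKR211A Tg hearts against the second set (adjusted p = 0.695) and -0.06 in ILKS343D Tg hearts against the first. For Col3a1 these values were 0.25 and 0.03. The difference between the 2 effects, tested in 1 fit, passed for 0 chains, where 0.0133% of all probe sets passed. Col7a1 (unadjusted p = 0.0319) and Col6a3 (unadjusted p = 0.0472) were the 2 chains (8.33%) under 0.05 unadjusted, against 6.96% of all probe sets. The difference between the effects was 0.32 for Col1a1, 0.12 for Col1a2, 0.23 for Col3a1, 0.22 for Col5a1 and 0.18 for Col5a2. It was -0.04 for Col5a3 and -0.07 for Col27a1. Between the lines compared directly, the fibrillar median was -0.05.

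Mice of the ILKR211A Tg group and of the second control set that carry the same replicate number deviated together from their group means, with a correlation over probe sets of 0.12 to 0.18 in the 3 pairs. With the replicate number as a block in a fit of these 6 mice, 0 of 24 chains passed an adjusted p under 0.05 in limma, where 0.0888% of all probe sets did. There were 5 chains (20.8%) with an unadjusted p under 0.05, against 10.3% of all probe sets. They were Col1a1, Col1a2 and Col3a1 of the main fibrils, Col6a3 and Col20a1, all with a higher fitted level in ILKR211A Tg hearts. The smallest p was that of Col3a1, with a log2 difference of 0.25 (unadjusted p = 0.00162, adjusted p = 0.213 from limma). These 3 control mice include the 2 with the low fibrillar levels described above, and their part in the block fit was not tested. Against the first set alone, which holds the other range of heart numbers, the fibrillar median of ILKR211A Tg hearts was 0.01. In the same 6 mice without the block, 3 chains (12.5%) had an unadjusted p under 0.05 in limma, against 7.35% of all probe sets. The paired mice also hold neighbouring heart numbers, 7 and 8, 9 and 10, and 12 and 11. The block fit was chosen from these same signals, so its p-values are a description. Same-numbered ILKS343D Tg and first-set mice hold neighbouring heart numbers too. Their correlation was 0.07 to 0.21, and no separate block fit was made for them.

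Pairs of chains were compared over the 12 mice, 4 pairs of chains of one collagen type and 3 pairs of chains of different types, with permutation p-values adjusted over the 7 pairs. Col4a1 and Col4a2 had Pearson's r = 0.88 (permutation p = 0.00025, adjusted p = 0.00175) and Spearman's rho = 0.88 (permutation p = 0.00037). Without the 2 mice farthest from the median of Col4a1, both ILKS343D Tg, r was 0.79, and within groups, on deviations from the 4 group means, it was 0.93. Col5a1 and Col5a2 had r = 0.83 (permutation p = 0.00098, adjusted p = 0.00317) and rho = 0.76 (permutation p = 0.00657), with r = 0.72 without the 2 farthest mice and 0.74 within groups. Col1a1 and Col1a2 had r = 0.82 (permutation p = 0.00136, adjusted p = 0.00317) and rho = 0.76 (permutation p = 0.00509), with 0.86 without the 2 farthest mice and 0.84 within groups. These 3 pairs kept a positive r of at least 0.72 under each of these settings, and of at least 0.86 when each array was centred on its median.

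Col1a1 and Col3a1, of different fibres, had r = 0.76 (permutation p = 0.00443, adjusted p = 0.00775) but rho = 0.44 (permutation p = 0.153), and r was 0.58 without the 2 mice farthest from the median of Col1a1. Col1a1 and Col4a1, of different classes, had r = 0.69 (permutation p = 0.0146, adjusted p = 0.0205), rho = 0.60 (permutation p = 0.0437, adjusted p = 0.0765) and r = 0.56 without those 2 mice. Their r was 0.67 within groups and 0.77 with centred arrays. Col6a1 and Col6a2, of the same filament, had r = -0.32 (permutation p = 0.315) and rho = -0.05 (permutation p = 0.884), and r was 0.51 without the 2 mice farthest from the median of Col6a1, replicates 2 and 3 of the second control set. The Col6a2 probe set used here had r = -0.17 with the other probe set of that gene, which was not set against Col6a1. Col15a1 and Col18a1 had r = 0.08 (permutation p = 0.799) and rho = 0.27 (permutation p = 0.392). The points of a pair share an array and its scaling.

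**Figure D5:**
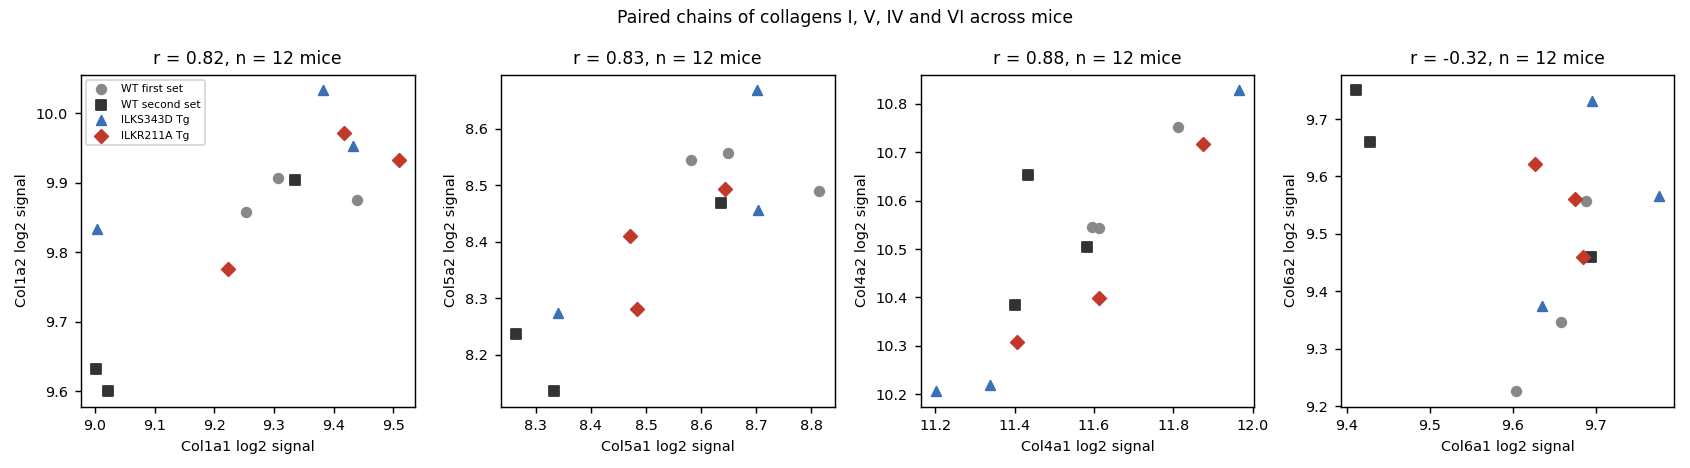
Log2 signal of 2 chains of one collagen type against each other (x and y axes) in 12 mice, for collagens I, V, IV and VI from left to right, with symbols for the first and second WT control sets, ILKS343D Tg and ILKR211A Tg hearts. The points of the first 3 panels rise together (r = 0.82, 0.83 and 0.88), and those of Col6a1 and Col6a2 do not (r = -0.32). The Col6a2 probe set shown had r = -0.17 with the other probe set of that gene.

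Several members were measured by more than 1 probe set, which gives a technical comparison. Of the 37 collagen probe sets above the limit, 0 were called by limma in any of the 4 comparisons. At an unadjusted p under 0.05 the counts were 1 in ILKR211A Tg and 2 in ILKS343D Tg hearts against controls, 1 between the lines and 9 between the control sets, which are 2.7%, 5.41%, 2.7% and 24.3% of the 37. That of Col7a1, which passed the filter only through the ILKS343D Tg hearts, is among the 2 in these hearts and is the 1 between the lines. The shares over all probe sets were 7.51%, 3.98%, 8.45% and 7.99%, and probe sets of 1 gene are not independent. For 12 genes with 2 or more of them, all probe sets had the same sign for 6 genes in ILKR211A Tg hearts against controls, for 10 in ILKS343D Tg hearts against controls, for 7 between the lines and for 9 between the control sets. Over the mice, probe sets of 1 gene correlated from r = 0.90 for Col3a1, 0.89 for Col1a2 and 0.88 for Col4a1 down to 0.04 for Col4a5 and -0.17 for Col6a2, a description only, since both are read from the same array. The 2 probe sets of Col6a2 also had opposite signs between the control sets, 0.25 for the one used here, whose type can cross-hybridize, and -0.12 for the other. The second probe set of Col18a1 had a log2 difference of 0.52 in ILKR211A Tg hearts (unadjusted p = 0.0207, adjusted p = 0.556 from limma). The second probe set of Col8a1 had a log2 difference of -0.57 between the control sets (unadjusted p = 0.0117, adjusted p = 0.503).

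New collagen chains are hydroxylated and folded in the endoplasmic reticulum before export. Of 17 tested genes of this machinery, 0 passed an adjusted p under 0.05 in any comparison, and 4 had an unadjusted p under 0.05 in ILKR211A Tg hearts against controls, all higher there. The share of all probe sets with an unadjusted p under 0.05, the background for this and the other pathway lists, was 7.51% in ILKR211A Tg hearts and 3.98% in ILKS343D Tg hearts. The share whose groups did not overlap with controls was 4.07% and 2.03%. P4ha1, the catalytic subunit of a prolyl hydroxylase, had a signal of 393 ± 102 in ILKR211A Tg hearts, 236 ± 10.2 in ILKS343D Tg hearts (SD, n = 3) and 249 ± 24.3 in controls (SD, n = 6). Every ILKR211A Tg heart lay above every control, with a log2 difference of 0.63 (SE 0.134, adjusted p = 0.103 from limma). Serpinh1, the collagen-specific chaperone Hsp47, had a signal of 3079 ± 354 in ILKR211A Tg hearts, 2362 ± 178 in ILKS343D Tg hearts and 2404 ± 233 in controls, also with no overlap (log2 difference 0.36, adjusted p = 0.219). The others were Plod1, a lysyl hydroxylase (log2 difference 0.28, adjusted p = 0.584), and P3h1, a prolyl 3-hydroxylase (log2 difference 0.35, adjusted p = 0.548). In ILKS343D Tg hearts none of the 17 had an unadjusted p under 0.05, and the smallest p were those of P4ha2 (log2 difference -0.27) and Sec31a (log2 difference -0.17).

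Outside the cell, propeptides are cleaved and fibrils cross-linked, and 0 of 8 tested genes of these steps were called by limma. At an unadjusted p under 0.05 there were 0 in ILKR211A Tg hearts and 1 in ILKS343D Tg hearts. The smallest p were those of Pcolce, an enhancer of propeptide cleavage (log2 difference 0.18), and the transglutaminase Tgm2 (0.10) in ILKR211A Tg hearts. In ILKS343D Tg hearts they were those of Pcolce2 (0.28, unadjusted p = 0.0435) and the lysyl oxidase Lox (0.28). Between the control sets all 8 lay below 0, with a median of -0.12. Of 10 fibril partners, 0 were called by limma, and 1 in each line had an unadjusted p under 0.05. Thbs2, a matricellular protein that shapes fibrils, had a signal of 135 ± 6.02 in ILKR211A Tg hearts (SD, n = 3), below all controls at 179.8 ± 25.4 (SD, n = 6). The log2 difference was -0.40 (SE 0.114, adjusted p = 0.303 from limma), and that of the proteoglycan Bgn was 0.14. The other 9 partners lay above 0 in ILKR211A Tg hearts, with a median of 0.10 over all 10. In ILKS343D Tg hearts the partners with the smallest p were fibronectin, Fn1 (log2 difference 0.31, unadjusted p = 0.0372), and the fibril proteoglycan Lum (0.23).

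Of 11 tested basement membrane partners, 0 were called by limma, and 2 had an unadjusted p under 0.05 in ILKS343D Tg hearts and 0 in ILKR211A Tg hearts. Lamb1, a laminin chain, had a signal of 461 ± 39.5 in ILKS343D Tg hearts (SD, n = 3) and of 358 ± 32.8 in controls (SD, n = 6), with no overlap (log2 difference 0.37, unadjusted p = 0.00109, adjusted p = 0.996 from limma). Nid1, which links laminin to type IV collagen, had log2 differences of 0.18 in ILKS343D Tg and 0.11 in ILKR211A Tg hearts, and the proteoglycan Agrn of 0.17 in the latter. Of 5 tested collagen receptors, 0 were called by limma, and 1 had an unadjusted p under 0.05 in ILKR211A Tg hearts and 0 in ILKS343D Tg hearts. That gene, Ddr2, a receptor tyrosine kinase for fibrillar collagen, was at 169.7 ± 11.3 in ILKR211A Tg hearts, below all controls at 201 ± 14.2 (log2 difference -0.24, adjusted p = 0.548 from limma). The other 4 tested receptors lay above 0 in these hearts, with a median of 0.13 over all 5. Mrc2, which takes up collagen fragments, was at 0.27 in ILKR211A Tg and -0.18 in ILKS343D Tg hearts, and Ddr1 at 0.17 in the latter.

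Of 9 tested genes of collagen degradation and its inhibitors, 0 were called by limma, and 0 had an unadjusted p under 0.05 in either line. Timp2 had log2 differences of 0.13 in ILKR211A Tg and 0.17 in ILKS343D Tg hearts, the protease Ctsk of -0.26 in ILKR211A Tg hearts and Timp1 of 0.50 in ILKS343D Tg hearts (adjusted p = 0.996 from limma). Timp1, a tissue inhibitor of metalloproteinases, also separated the control sets, with a signal of 74 ± 14 in the first and 41 ± 0.453 in the second (SD, n = 3 each, log2 difference -0.84, adjusted p = 0.227 from limma). Of 11 tested genes of TGF-beta signalling and fibrosis, 0 were called by limma and 0 had an unadjusted p under 0.05 in either line. The smallest p were those of the ligand Tgfb1 (log2 difference 0.15) and the matricellular protein Ccn2 (0.32) in ILKR211A Tg hearts and of the receptor Tgfbr1 (0.18) and the latent TGF-beta binding protein Ltbp1 (0.15) in ILKS343D Tg hearts.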

How the data were processed

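Signals of 12 mouse hearts on Affymetrix arrays were used. The deposited table holds linear signal intensities, which the authors obtained with MAS5 (GCOS) and scaled to the same trimmed mean on each array. The MAS5 version was not given in the sources used here. Control probe sets (64) were left out, and the 22519 of 45037 others whose mean log2 signal reached the median of all were tested. The log2 of each deposited signal was used without further normalization. Comparisons used limma 3.58.1 in R 4.3.3 (linear models, empirical Bayes with a trend, two-sided, Benjamini-Hochberg over all tested probe sets, threshold 0.05), with 3 genotype groups, and 4 groups for the control sets. Single genes were also compared by exact permutation tests, and pairs of chains with 100000 permutations in Python 3.11.15 (scipy 1.17.1). Figures were drawn with matplotlib 3.10.9. The fit was tested on simulated data.

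The members, classes, gene lists and pairs were chosen with earlier results of these data known. The text gives values for 14 chains listed by role, every called member and the 5 members with the smallest p of each comparison, and, of each pathway list, the 2 genes with the smallest p in each line against controls. Plod1, P3h1, Thy1, Mfap5, Upk3b, Upk1b and the control-set value of Timp1 were named after their values were seen. Classes follow textbook grouping, and GRCm38.p6 serves only for promoters and start sites. Same-numbered samples were checked for shared deviations from their group means. The correlation was above 0.1 in 3 of 3 pairs of ILKR211A Tg mice with the second control set. It was so in 2 of 3 pairs of ILKS343D Tg mice with the first set, and in 0 of the 12 other pairs. In both of these combinations same-numbered mice also hold neighbouring heart numbers, although no label used here names pairs. A separate replicate block was fitted only for the 6 ILKR211A Tg and second-set mice. That fit was chosen from these correlations and added after seeing the data. Alternatives changed the scaling, the filter, the offset, the moderation, the weights of arrays, the arrays and controls used, the probe set per gene, the classes and the threshold, added a replicate block, or left out single mice. A planned description of the proteins' repeats was not run.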

Additional observations from a re-analysis of the deposited data

How the results depend on the processing

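The count of collagen chains past an adjusted p under 0.05 in limma was 0 in each of the 4 comparisons under every alternative that kept this threshold, each mouse left out included, and at an unadjusted p under 0.05 it was 0 in ILKR211A Tg hearts and 1 in ILKS343D Tg hearts against controls, 1 between the lines and 6 between the control sets. The fit of all 12 mice with a replicate block also gave 0 chains in each comparison. That block ties mice with 1 replicate number across both ranges of heart numbers, so it cannot show the effect of pairs within a range. The block of ILKR211A Tg hearts with the second control set alone, chosen after seeing the data, gave 0 chains too. No call at the adjusted threshold changed with either block. Of the alternatives' class medians, 274 moved by less than the SD of that median over the 6 controls and 17 by more, and the sign was kept in 74 of 78 for ILKR211A Tg hearts against controls, 71 of 75 for ILKS343D Tg hearts, 59 of 69 between the lines and 68 of 69 between the control sets. The basement membrane median, whose SD over the controls is only 0.06, moved most often. Between the lines it was -0.0017 with arrays centred on the median, 0.0568 with a stricter filter on mean signal and 0.0741 with the probe set of largest interquartile range; leaving out single mice gave -0.1748 to 0.0679. In ILKR211A Tg hearts against controls it was 0.0613 with that probe set and 0.0153 with Col15a1 and Col18a1 counted as basement membrane, and -0.0734 to 0.0824 with single mice left out. In ILKS343D Tg hearts it was 0.0335 against the second control set alone and -0.1921 to 0.0529 with single mice left out. Between the control sets it was -0.1670 with arrays centred and -0.1273 to 0.0041 with single mice left out, and the fibrillar median was -0.4005 with the probe set of largest interquartile range. Within the exact permutation test, Col7a1 in ILKS343D Tg hearts (p = 0.0119) and Col4a3 in ILKR211A Tg hearts (p = 0.0476) passed 0.05 unadjusted, the former a chain that passed the filter only through these hearts. The causes of these moves were not tested. Col4a6 had the widest 95% interval of the 24 chains in the comparisons with controls.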
